A study of Mus musculus with 12 samples.

Results

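Nnt, Disc1, Glo1 and Cyfip2 are 4 mouse genes for which variants between laboratory strains are known, and their RNA was followed in the amygdala of 129S1/SvImJ (S1) and C57BL/6 (B6) mice. The rule takes them by gene symbol and uses no measured value, though earlier results of these data were known when it was written. They are 4 of the 24531 genes in the deposited tables. Their 9 transcripts are among 36779. The mice were male and wild type in every group, and no transgene or agent was named in the labels. Each strain was sampled naive, after fear conditioning (FC) and after fear extinction (Ext), in the basolateral amygdala (BLA) and in the central amygdala (CeA). This gave 12 groups with 1 RNA-seq library each. The design text names CEm where the sample labels have CeA, and the labels' name is used here. The labels give neither the age nor the number of mice behind a library, nor the substrain of C57BL/6. The study asked which amygdala genes relate to the poor fear extinction of S1 mice.

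The genes act in separate systems. Nnt encodes nicotinamide nucleotide transhydrogenase, an inner-membrane enzyme that makes NADPH in mitochondria, which glutathione and thioredoxin need to remove peroxide. The substrain C57BL/6J carries a deletion of several Nnt exons that C57BL/6N lacks, and the mouse reference genome was built from C57BL/6J. Glo1 encodes glyoxalase 1, which with glutathione detoxifies methylglyoxal, a by-product of glycolysis. Its level has been linked to anxiety-like behaviour in mice, and a duplicated stretch of chromosome 17 that includes it segregates among inbred strains. Cyfip2 encodes a subunit of the WAVE complex, which drives branching of actin, and a partner of the fragile X protein FMRP. A missense change in Cyfip2 separates C57BL/6N from C57BL/6J. Disc1 encodes a scaffold at the centrosome and synapse, and 129 strains carry a short deletion in exon 6 that shifts its reading frame. None of these DNA variants was read from the files, which hold counts and not sequence.

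Sequences of Disc1 exons and of the Glo1 promoter are given as background. Only exon 9 of Disc1 bears on a result, the counts of transcript variant 2, and no test used any of these sequences. Exon 6 of Disc1 is where the 129 deletion lies. It spans chr8:125135274-125135509 on the plus strand of GRCm38 (GENCODE M21), the build also called mm10, and is 236 bases long. Exon 9, at chr8:125164993-125165181, is 189 bases long and is the only exon in which the annotated forms matching the deposited Disc1 transcripts differ. Transcript variant 1 has 13 exons and variant 2 has 12, without exon 9. Both are printed as the reference has them, in lower case with nothing marked.
Disc1 exon 6: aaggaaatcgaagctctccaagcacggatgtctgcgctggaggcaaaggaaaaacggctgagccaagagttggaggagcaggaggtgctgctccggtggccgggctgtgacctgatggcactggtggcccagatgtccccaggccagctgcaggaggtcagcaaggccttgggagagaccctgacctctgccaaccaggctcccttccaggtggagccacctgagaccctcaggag
Disc1 exon 9: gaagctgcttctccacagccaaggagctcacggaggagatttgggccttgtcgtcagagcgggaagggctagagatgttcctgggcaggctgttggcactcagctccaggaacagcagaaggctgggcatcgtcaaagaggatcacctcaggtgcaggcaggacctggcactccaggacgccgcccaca

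For Glo1, the gene with the clearest difference between strains, the promoter is shown from 250 bases before the start to 50 after it, at chr17:30612610-30612909 on the minus strand (RefSeq, GRCm38.p6). Capitals mark matches on either strand to CCAAT, found once, and to GGGCGG, the GC box, found 3 times with 2 of the matches overlapping.
Glo1 promoter: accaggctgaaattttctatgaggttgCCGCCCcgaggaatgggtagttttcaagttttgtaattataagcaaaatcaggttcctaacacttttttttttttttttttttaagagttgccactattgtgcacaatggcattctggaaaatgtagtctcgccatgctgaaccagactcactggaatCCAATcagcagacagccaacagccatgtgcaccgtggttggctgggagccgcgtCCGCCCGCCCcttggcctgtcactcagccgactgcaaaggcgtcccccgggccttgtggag
Of 32851 promoters of the same length, 37.4% held CCAAT and 35.7% held GGGCGG. Neither TATAAA nor TGACNNNGC, the core of the antioxidant response element, was in this window, and 13.6% and 12.4% of promoters held them. The windows of Cyfip2 and Disc1 held GGGCGG once and 2 times, and none of the other 3 motifs. RefSeq promoters were matched for 3 of the 4 genes, Nnt being the exception. These matches describe letters of the reference and not of S1 DNA.

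Total counts were 42224899 to 61695302 per library, and 3 counts equalled 0.0486 to 0.071 CPM, counts scaled to the total of the library. The region labels were checked against marker genes. A list of 5 BLA excitatory markers summed to 1997 to 2224 CPM in the 6 BLA libraries, against 16.1 to 213.6 CPM in the 6 CeA libraries. A list of 5 CeA markers summed to 274.8 to 644.5 CPM in BLA, against 2741 to 3768 CPM in CeA. All 5 oligodendrocyte markers passed as lower in S1 among naive and FC libraries, with summed levels of 1476 to 2717 CPM in S1 and 2836 to 4112 CPM in B6. Of the 5 astrocyte markers 4 were lower in S1, with sums of 800.3 to 1087 CPM in S1 and 980.4 to 1276 CPM in B6. Of the 5 microglial markers 3 were lower, at 251 to 260.3 CPM in S1 and 286.3 to 333.3 CPM in B6. Of the 4 endothelial and mural markers 1 was lower, with sums of 73.3 to 85.7 CPM in S1 and 86.1 to 106.2 CPM in B6. Of the 3 blood markers 1 was lower, with sums of 0.798 to 26.5 CPM in S1 and 45.2 to 100.3 CPM in B6; Hbb-bs, a haemoglobin gene, was at 0 in 4 of the 12 libraries. None of the 3 neuronal markers passed between strains. In the same strain comparison, described below, 10.4% of all tested genes passed as lower in S1. After extinction the blood sums of the strains overlapped, at 2.61 to 42.95 CPM in S1 and 1.92 to 33.7 CPM in B6. Oligodendrocyte and astrocyte sums overlapped there too, whereas microglial and endothelial and mural sums stayed lower in S1. The part of these marker differences in the results that follow was not tested. In bulk tissue fewer cells of a type and less RNA per cell cannot be told apart.

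Set side by side per length, the 4 genes covered a wide range of abundance. In FPKM, the deposited unit that scales fragments by transcript length and library size, Cyfip2 was the most abundant at 113.2 to 165.3 in S1 and 100.9 to 155.2 in B6. Glo1 followed at 73.6 to 89.3 FPKM in S1 and 39.8 to 47.7 FPKM in B6. Nnt was at 3.96 to 8.98 FPKM in S1 and 7.85 to 10.2 FPKM in B6. Disc1 was lowest, at 0.0535 to 0.205 FPKM in S1 and 0.0645 to 0.254 FPKM in B6. No library of one gene reached the range of the next, so the order held in all 12 libraries.

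**Figure D1:**
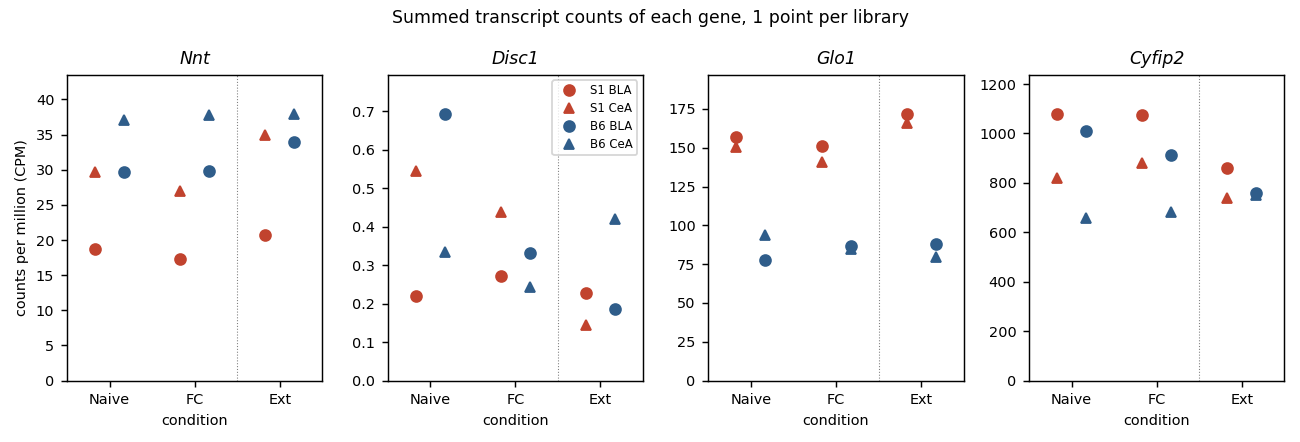
CPM of each gene (vertical axis, from 0) by condition (horizontal axis), 1 point per library, with S1 in red left of B6 in blue, circles for BLA and triangles for CeA. The dotted line parts the naive and FC libraries from the extinction libraries, which were deposited in another table. The 6 S1 points of Glo1 (141 to 171 CPM) lie above all 6 B6 points (77.5 to 93.9 CPM).

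Strain was tested first in the 8 naive and FC libraries, where region and conditioning were terms of the same edgeR quasi-likelihood fit. Glo1 and Cyfip2 were higher in S1, Nnt was lower in S1, and Disc1 did not pass. Thus 3 of the 4 genes passed an adjusted p of 0.05, in a comparison in which 22.8% of the 16274 tested genes passed. The share of tested genes that passed was 12.4% as higher in S1 and 10.4% as lower, that is 2021 and 1691 genes; limma on log2(FPKM + 1) split its calls as 1358 higher and 2045 lower. Without B6 naive BLA 32.3% of tested genes passed, and without any other library in turn 9.21% (B6 FC CeA) to 14.9% (S1 naive BLA). Since a group was 1 library, these p-values measure spread around the additive model, not spread between mice.

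Glo1 had 157 CPM in naive BLA, 150 CPM in naive CeA, 151 CPM in FC BLA and 141 CPM in FC CeA of S1 mice. In B6 mice it had 77.5 CPM in naive BLA, 93.9 CPM in naive CeA, 86.8 CPM in FC BLA and 85.1 CPM in FC CeA. Every S1 library was above every B6 library, and the 4 matched pairs gave S1 over B6 ratios of 1.60 to 2.03. The log2 difference was 0.84 ± 0.07 (SE; 8 libraries, edgeR quasi-likelihood F test, Benjamini-Hochberg adjusted p = 0.000198). It was 0.91 in BLA alone and 0.75 in CeA alone, and passed without each library in turn at 0.78 to 0.88. After extinction S1 mice had a Glo1 level of 171 CPM for BLA and 166 CPM for CeA, and B6 mice 87.9 CPM for BLA and 79.6 CPM for CeA. The groups again did not overlap. That difference was 1.01 ± 0.07 in the 4 extinction libraries fitted alone (edgeR adjusted p = 0.0145), where 1.64% of the 15996 tested genes passed. Glo1 was the only one of the 4 genes to pass there.

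Nnt went the other way. It had 18.7 CPM in naive BLA, 29.7 CPM in naive CeA, 17.3 CPM in FC BLA and 26.9 CPM in FC CeA of S1 mice. B6 mice had 29.7 CPM in naive BLA, 37.1 CPM in naive CeA, 29.8 CPM in FC BLA and 37.9 CPM in FC CeA. S1 was lower in each of the 4 matched pairs, and the ranges of the strains just failed to overlap, with S1 naive CeA and B6 naive BLA both at 29.7 CPM. The log2 difference was -0.53 ± 0.09 (edgeR adjusted p = 0.0064), a 1.44-fold lower counted level in S1. It passed without each library in turn at -0.60 to -0.46. In the 4 naive libraries alone it was -0.45 and did not pass (adjusted p = 0.176). After extinction the S1 level was 20.7 CPM for BLA and 34.9 CPM for CeA, and the B6 level 34.0 CPM for BLA and 37.9 CPM for CeA. Both pairs were again lower in S1, while S1 CeA exceeded B6 BLA, and the difference of -0.41 ± 0.16 did not pass (edgeR adjusted p = 0.349). The value was -0.72 from the BLA pair and -0.11 from the CeA pair. All counts rest on the mouse reference genome, which was built from the substrain with the Nnt exon deletion. The effect of this reference on the S1 counts of Nnt, or of any other gene, was not tested.

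Cyfip2 had 1077 CPM in naive BLA, 818 CPM in naive CeA, 1074 CPM in FC BLA and 881 CPM in FC CeA of S1 mice. In B6 it had 1011 CPM in naive BLA, 657 CPM in naive CeA, 913 CPM in FC BLA and 681 CPM in FC CeA. S1 was higher in 4 of 4 matched pairs, by ratios of 1.07 to 1.29, while the ranges of the strains overlapped. The log2 difference was 0.29 ± 0.07 (edgeR adjusted p = 0.0224). The call was lost without S1 naive CeA (adjusted p = 0.0762), B6 naive CeA (0.0914), S1 FC CeA (0.0597), B6 FC BLA (0.0765) or B6 FC CeA (0.101), at 0.23 to 0.36 over all 8 omissions. It passed in CeA alone at 0.40 (adjusted p = 0.0063) and not in BLA alone at 0.17 (0.339). Long transcripts leaned towards S1 in these libraries, and at the length of Cyfip2 a smooth curve (loess) fitted to all genes stood at 0.19. With that trend taken off, the Cyfip2 difference was 0.11, whereas Glo1 stood at 0.94 and Nnt at -0.57. After extinction Cyfip2 stood at 861 CPM (BLA) and 739 CPM (CeA) for S1 and at 759 CPM (BLA) and 751 CPM (CeA) for B6, and its difference of 0.08 ± 0.08 did not pass (edgeR adjusted p = 0.696).

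Disc1 was close to the limit of counting. In S1 libraries it had 10 counts in naive BLA, 23 in naive CeA, 13 in FC BLA, 23 in FC CeA, 14 in Ext BLA and 8 in Ext CeA. In B6 libraries it had 38 counts in naive BLA, 16 in naive CeA, 19 in FC BLA, 11 in FC CeA, 11 in Ext BLA and 21 in Ext CeA. S1 was below B6 in 3 of 6 matched pairs and above it in the other 3, so no common direction was seen. The log2 difference was -0.06 ± 0.49 in naive and FC libraries (edgeR adjusted p = 0.941) and -0.62 ± 0.71 after extinction (0.743). Each error is 1 SE, so at this depth differences well above these errors could also go undetected. The sign turned when naive BLA of S1 (0.35), naive BLA of B6 (0.32) or FC BLA of S1 (0.03) was left out.

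**Figure D2:**
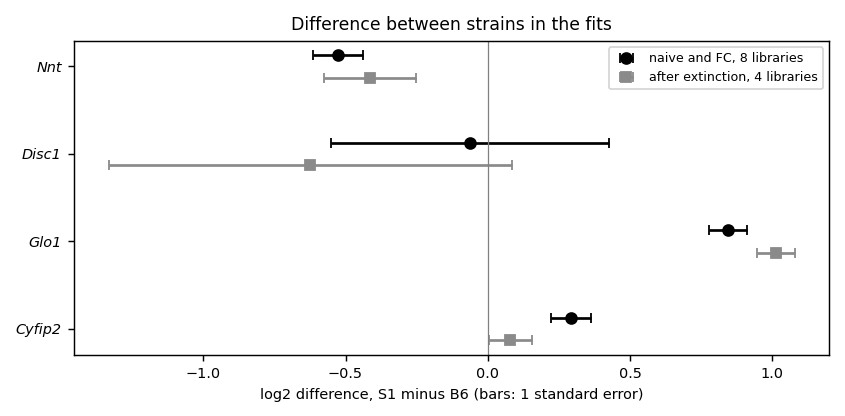
Log2 difference between strains, S1 minus B6 (horizontal axis), for each gene (vertical axis), with bars of 1 standard error. Black circles are the 8 naive and FC libraries and grey squares the 4 extinction libraries. Glo1 lies at 0.84 and 1.01, Nnt at -0.53 and -0.41, and both bars of Disc1 cross 0.

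Region was the next term of the fit, and 2 of the 4 genes passed, where 46.6% of tested genes did. The calls over all genes were 3778 higher and 3809 lower in BLA with edgeR, and 2805 higher and 5227 lower with limma on log2(FPKM + 1). Cyfip2 was higher in BLA than in CeA by 0.54 ± 0.07 on the log2 scale (edgeR adjusted p = 0.00041). Within S1 and within B6, both naive and FC, each BLA library was above its CeA partner. Nnt was lower in BLA than in CeA by 0.38 log2 units (difference -0.38 ± 0.09, edgeR adjusted p = 0.008), again in all 4 pairs of libraries. The 3 neuronal markers passed as higher in BLA, with sums of 4076 to 4563 CPM in the 6 BLA and 2424 to 2683 CPM in the 6 CeA libraries, and all 5 oligodendrocyte markers passed as higher too (2548 to 4112 CPM in BLA and 1476 to 3209 CPM in CeA). All 3 striatal markers passed as lower in BLA, at 36.3 to 92.6 CPM in BLA and 320.2 to 505 CPM in CeA. The part of these markers in the region differences was not tested. Glo1 (0.09 ± 0.07, adjusted p = 0.314) and Disc1 (0.04 ± 0.49, adjusted p = 0.957) did not pass between regions, and both turned negative with limma on FPKM (-0.02 and -0.01 on log2(FPKM + 1)). Without B6 naive BLA, Glo1 passed at 0.16 (adjusted p = 0.0231).

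None of the 4 genes passed for conditioning, FC against naive, where 0 of all 16274 tested genes passed in edgeR (0%). Unadjusted, 571 genes had p under 0.05, none of them a member, and DESeq2 called 21 genes, none of them a member. The log2 differences were -0.06 ± 0.09 for Nnt, -0.04 ± 0.07 for Glo1 and -0.0015 ± 0.07 for Cyfip2. For Disc1 the value was -0.47 ± 0.48.

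Whether the strain difference itself depended on region was tested by an interaction term, which 0.0307% of genes passed and none of the 4 did. For Nnt the S1 minus B6 difference was -0.72 in BLA and -0.36 in CeA, an interaction of -0.36 ± 0.13 (edgeR, unadjusted p = 0.0266, adjusted p = 0.539). Disc1 gave -1.79 ± 0.78 (adjusted p = 0.582), Cyfip2 -0.22 ± 0.12 (0.612) and Glo1 0.16 ± 0.13 (0.7). Only Nnt had an unadjusted p under 0.05, and DESeq2 passed none of the 4. No gene passed the interaction of strain with conditioning in edgeR (0%), although 293 genes had unadjusted p under 0.05 and DESeq2 called 9, none of them a member. The strain difference after extinction was also set against that before it over all 12 libraries. It changed by 0.18 ± 0.11 for Glo1, 0.12 ± 0.18 for Nnt, -0.21 ± 0.16 for Cyfip2 and -0.57 ± 0.87 for Disc1, with adjusted p of 0.888 to 0.925. No gene passed that test in edgeR (0%), 738 genes had unadjusted p under 0.05 and DESeq2 called 53, none of them a member. The larger Glo1 difference and the smaller Cyfip2 difference after extinction are thus not shown to differ from those before it.

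Counts were also deposited per transcript. Of the 9 transcripts 8 could be tested for strain in the naive and FC libraries, and 1 passed, against 3.06% of 24539 tested transcripts. That share was 5.04% without B6 naive BLA and 0.259% (S1 naive CeA) to 0.561% (S1 FC CeA) without any other library in turn. The transcript that passed was Glo1 variant 1, with a log2 difference of 0.82 ± 0.07 (edgeR adjusted p = 0.0099), and it kept an adjusted p under 0.05 in 3 of the 8 fits that left out 1 library. Glo1 variant 2 held 1.54% to 3.18% of the gene's counts in S1 and 0.423% to 1.93% in B6 naive and FC libraries. Its difference of 1.95 ± 0.47 did not pass (adjusted p = 0.0952). Cyfip2 variant 1 held 86.5% to 94.5% of that gene's counts over all 12 libraries and differed by 0.25 ± 0.06 (adjusted p = 0.0952). Variants 2 and 3 of Cyfip2 differed by 0.53 ± 0.44 and 0.63 ± 0.33 and did not pass either. A test of transcript shares within genes could be made for 7 of the 9 and passed for none, against 0.671% of 12966 transcripts. None of the 7 had an unadjusted p under 0.05 in it.

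The 2 transcripts of Nnt shared the gene's counts unevenly between libraries. They are models of the reference genome that span chr13:119334317-119409011 (variant 1, 4614 bases) and chr13:119335527-119409257 (variant 2, 3645 bases). Variant 1 held 69.5% of the Nnt counts in S1 FC BLA (95% Wilson interval 66.3% to 72.6%) and 19.9% in S1 Ext CeA (18.2% to 21.7%). It held 11.1% in B6 FC BLA (9.67% to 12.7%) and 12% in B6 FC CeA (10.6% to 13.6%). In the other 8 libraries its share was 0.547% to 2.72%. The high shares thus occurred in both strains. They were absent from the naive libraries, and equally from S1 FC CeA, S1 Ext BLA, B6 Ext BLA and B6 Ext CeA. The intervals cover counting error alone. Variant 1 gave a strain difference of 0.96 ± 1.12 (edgeR adjusted p = 0.682) and variant 2 one of -0.81 ± 0.40 (0.318). The summed level of S1 FC BLA, 17.3 CPM, was close to the 18.7 CPM of S1 naive BLA although its transcript shares were not.

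**Figure D3:**
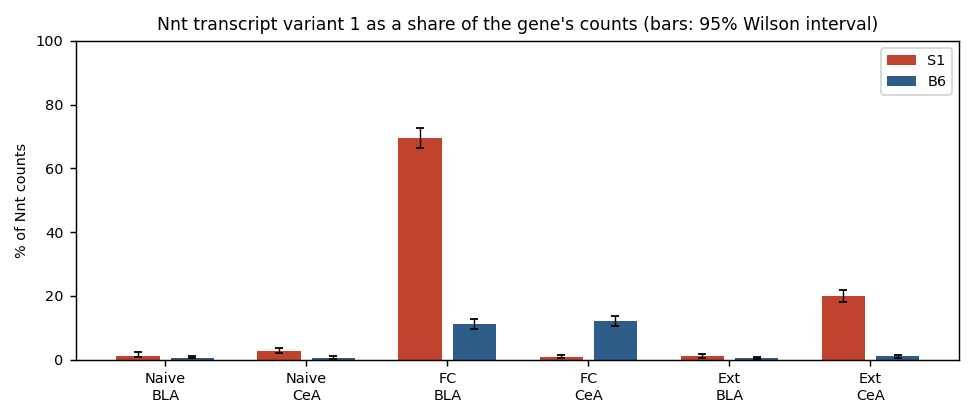
Share of the Nnt counts assigned to transcript variant 1 (vertical axis, %) in each library, grouped by condition and region, with S1 in red left of B6 in blue; lines are 95% Wilson intervals. S1 FC BLA stands at 69.5%, B6 FC BLA and B6 FC CeA at 11.1% and 12%, S1 Ext CeA at 19.9%, and the other 8 libraries at 2.72% or less.

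Disc1 variant 2, the form without exon 9, had 0 counts in each of the 6 S1 libraries. In B6 it had 6 counts in naive BLA, 3 in naive CeA, 1 in FC BLA, 2 in Ext BLA and 0 in both FC CeA and Ext CeA. The 12 B6 counts lay in 4 of 6 libraries, and the form was too rare to enter the test. Over each strain's 6 libraries together, B6 had 0.0382 CPM. A limit of 3 counts in S1 equals 0.0098 CPM, and B6 stood 3.9-fold above that limit. This ratio covers the counting error of the S1 zeros and not that of the 12 B6 counts. Without B6 naive BLA, which held 6 of them, it was 2.36-fold. Errors in assigning reads to transcripts and spread between libraries are not covered either, so the ratio sets no lower limit on a strain difference. The share of zero in S1 rests on 8 to 23 Disc1 counts per library, and the upper ends of the Wilson intervals were 14.3% to 32.4%. In the B6 libraries that held it, its share was 5.26% to 18.8%.

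Genes next to the 4 members were examined in the same strain comparison. Within 500 kb of Glo1, 4 of 6 tested genes were higher in S1 and 0 lower (median log2 difference 0.46, against -0.0011 over all tested genes). Of all tested genes 12.4% were higher and 10.4% lower. Btbd9, the nearest tested gene at lower coordinates, 16.6 kb away, was higher by 0.44 ± 0.09 (edgeR adjusted p = 0.0107). Dnah8, a dynein heavy chain gene 14.3 kb away on the other side, had 0.899, 0.521, 1.75 and 1.41 CPM in S1 naive BLA, naive CeA, FC BLA and FC CeA. B6 had 0.309, 0.0418, 0.419 and 0 CPM in the same libraries. The strains did not overlap for Dnah8 (2.78 ± 0.65, adjusted p = 0.0214). Glp1r, the receptor for glucagon-like peptide 1, differed by 2.63 ± 0.57 (0.0167) and Abcg1, a sterol transporter, by 0.26 ± 0.06 (0.022). Umodl1 (0.48 ± 0.55) and Zfand3 (-0.13 ± 0.06) did not pass. Without 1 library the count of higher neighbours was 1 to 4. Btbd9 failed only without B6 FC CeA (adjusted p = 0.0583). Dnah8 failed without S1 naive CeA, B6 naive CeA or B6 FC BLA, and Glp1r without B6 naive CeA, B6 FC BLA or B6 FC CeA. Abcg1 passed in 2 of the 8 such fits. None of the 4 passed among the extinction libraries, where their differences were 0.32 for Btbd9, 1.78 for Dnah8, 2.04 for Glp1r and 0.18 for Abcg1.

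Around Nnt, all tested neighbours lay at higher coordinates, and 5 of 8 were lower in S1 and 0 higher, with a median of -0.68. Over all tested genes 10.4% were lower and 12.4% higher. The nearest, Paip1, 19.3 kb away, did not pass (-0.03 ± 0.07). The next, 4833420G17Rik, had 11 CPM in naive BLA, 16.1 CPM in naive CeA, 11.6 CPM in FC BLA and 14.6 CPM in FC CeA of S1 mice. B6 mice had 37.7 CPM in naive BLA, 55.3 CPM in naive CeA, 37.4 CPM in FC BLA and 54.5 CPM in FC CeA. No S1 library came near a B6 library, at -1.75 ± 0.06 (edgeR adjusted p = 5.4e-06), and this gene also passed after extinction at -1.83 (adjusted p = 0.0145). Ccl28, a chemokine, was lower by 3.68 log2 units (adjusted p = 0.0076; 0 to 0.285 CPM in S1 and 0.927 to 1.73 CPM in B6). 3110070M22Rik fell by 2.23 log2 units (0.005) and Gm7120 fell by 0.94 (0.0499). In these libraries 3110070M22Rik had 0.152 to 0.438 CPM in S1 and 1.02 to 2.09 CPM in B6. The loci of 3110070M22Rik and Gm7120 overlap, so reads may be split between them and their calls are not separate. Nim1k, a kinase gene, was the fifth, at -0.42 ± 0.06 (0.0043). Without 1 library, 4 or 5 of these remained past the threshold: Gm7120 passed in 1 of 8 such fits, and the other 4 in all 8.

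Cyfip2 and Disc1 had mixed neighbours. Around Cyfip2, 3 of 11 tested genes were higher in S1 and 1 lower, with a median of 0.05. Of all tested genes 12.4% were higher and 10.4% lower. Nipal4, 27.5 kb away at lower coordinates, was lower in S1, at -1.03 ± 0.19 (edgeR adjusted p = 0.0097), and passed without each library in turn. Fndc9 lies within the Cyfip2 locus and did not pass (0.18 ± 0.10); reads of overlapping genes may be split between them. Around Disc1, 3 of 17 tested genes were higher and 2 lower, with a median of 0.02, where 22.8% of all tested genes passed. Its nearest neighbour Tsnax, the gene of translin-associated factor X and also a DISC1 partner, did not pass (-0.03 ± 0.07). Arv1 differed by -0.62 ± 0.10 (0.0059) and passed without each library in turn. The other 4 calls near Disc1 passed in 2 of 8 such fits each.

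**Figure D4:**
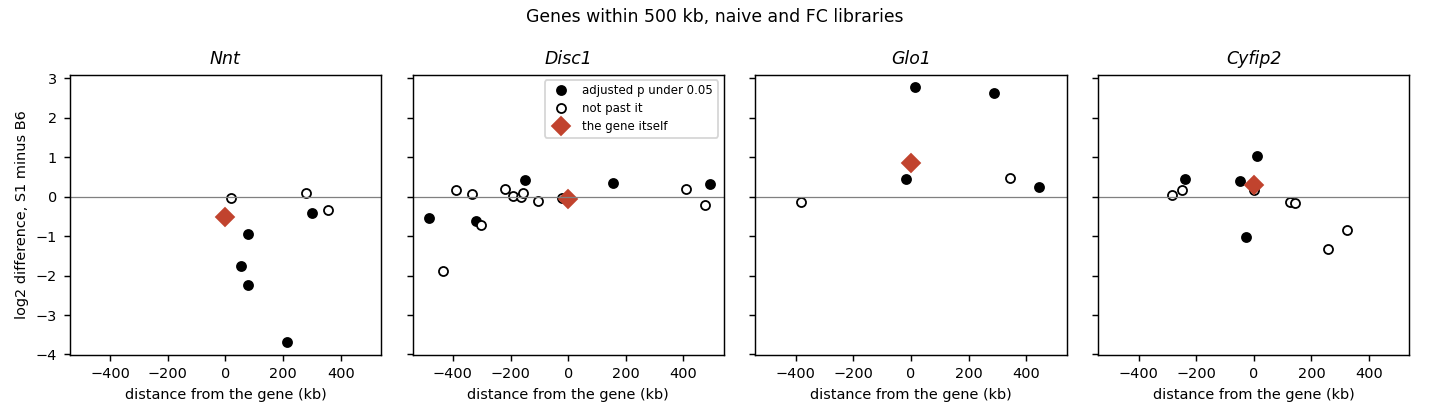
Log2 difference between strains, S1 minus B6, in naive and FC libraries (vertical axis) for tested genes within 500 kb of each member, against distance in kb (horizontal axis, negative towards lower coordinates). Filled points passed the threshold, open points did not, and red diamonds are the members. Filled points around Glo1 all lie above 0 (4 of 6 genes) and those around Nnt all lie below it (5 of 8). Over all tested genes 12.4% passed as higher and 10.4% as lower.

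Partner genes were described from 4 lists of the systems in which the members act, in the same strain comparison. The trend with transcript length given for Cyfip2 was not taken off for these lists. Among 20 genes of glutathione, peroxide and mitochondrial NADPH metabolism, 2 were higher in S1 and 4 lower, with a median of -0.02. Of all tested genes 12.4% were higher and 10.4% lower. Me3, the mitochondrial NADP-dependent malic enzyme, was higher by 0.64 ± 0.11 (edgeR adjusted p = 0.0063), with 145 and 66.0 CPM in S1 naive BLA and CeA against 69.6 and 51.4 CPM in B6. Cat, catalase, was lower at -0.32 ± 0.06 (0.0104), Gpx4, which reduces lipid peroxides, at -0.28 ± 0.06 (0.017) and Prdx5, a peroxiredoxin, at -0.28 ± 0.08 (0.0374). Idh2, the mitochondrial NADP-dependent isocitrate dehydrogenase, did not pass (-0.07 ± 0.06). Leaving out 1 library left 1 to 3 higher and 1 to 4 lower genes. Me3 and Cat passed in all 8 such fits, Gpx4 in 4 and Prdx5 in 1.

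A list of 12 genes around methylglyoxal held aldehyde-metabolising enzymes, the glycolytic enzyme Tpi1 and Ager, the receptor for glycation end products. Of these 0 were higher and 1 lower, with a median of -0.12, against the same 12.4% and 10.4%. The lower one was Esd, the esterase that hydrolyses S-formylglutathione, a step of formaldehyde and not of methylglyoxal removal. Esd had 27.0 CPM in naive BLA, 42.9 CPM in naive CeA, 27.1 CPM in FC BLA and 35.3 CPM in FC CeA of S1 mice. B6 mice had 53.0 CPM in naive BLA, 90.9 CPM in naive CeA, 63.2 CPM in FC BLA and 90.0 CPM in FC CeA. All 4 S1 libraries lay below all 4 B6 libraries, at -1.12 ± 0.08 (edgeR adjusted p = 0.000166), and Esd also passed after extinction at -0.90 (adjusted p = 0.0324). It passed without each library in turn, and in those fits 1 to 4 genes of the list were lower. Hagh, glyoxalase 2, which takes up the product of glyoxalase 1, did not pass (-0.02 ± 0.07).

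Of 24 DISC1 partners, 6 were higher and 2 lower, with a median of 0.06, beside 12.4% and 10.4% of all tested genes, and without 1 library 0 to 8 were higher and 1 or 2 lower. Nde1, a centrosomal partner of dynein, differed by -0.43 ± 0.08 (edgeR adjusted p = 0.01) and passed in all 8 such fits. Map1a, a microtubule-associated protein, differed by 0.42 ± 0.12 (0.036) and passed in 1. Atf4, a stress transcription factor, differed by -0.34 ± 0.08 (0.0266) and Tnik, a synaptic kinase, by 0.32 ± 0.09 (0.0402), each passing in 2. Of 18 WAVE complex and FMRP partner genes, 2 were higher and 2 lower, with a median of 0.03 and 22.8% of all tested genes passing in either direction, and without 1 library 0 to 3 were higher and 1 or 2 lower. Abi3, a WAVE subunit gene that microglia express, differed by -0.55 ± 0.11 (0.0123) and passed in all 8. The 5 microglial markers given above had a median difference of -0.19, with 3 of them lower, and their part in the Abi3 difference was not tested. Wasf3 (0.50 ± 0.14), Brk1 (-0.32 ± 0.08) and Caprin1 (0.20 ± 0.05) passed in 2, 3 and 3 such fits. Cyfip1, the paralog of Cyfip2, did not pass (-0.01 ± 0.05). After extinction no gene of the NADPH, DISC1 or WAVE lists passed in edgeR, and 3, 1 and 0 of them had an unadjusted p under 0.05.

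The genes whose levels most resembled each member were sought by Pearson's r of log2(CPM + 0.5) over the 8 naive and FC libraries, among 11243 genes, as a description. For Glo1 these were AA465934 (r = 0.992), Pcdhb7 (0.989) and Abhd1 (0.984). AA465934 had 11.6 to 13.4 CPM in the 4 S1 libraries against 0.583 to 1.02 CPM in the 4 B6 libraries. For Nnt they were Pop1 (0.985), Pqlc1 (0.982) and Sf3b3 (0.980), each lower in S1 and in BLA. Cyfip2 was followed by Atxn2 (0.996), Plxna4 (0.996) and Mapk8ip2 (0.994), each higher in BLA. For Disc1 the highest values were lower, with Dcaf7 (0.894), Rhbdd1 (0.879) and Eml2 (0.765). Disc1 itself had 0.219 to 0.692 CPM in these 8 libraries, around the 0.5 added before the log. The part of counting error in its lower values was not tested. Points of such a correlation share strain, region and library, so it carries no test.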

How the data were processed

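Polyadenylated RNA was sequenced in 12 libraries, with RNeasy extraction and a TruSeq Stranded mRNA library kit per the labels' protocols. The submitters' processing notes name StringTie; the aligner, and whether counting used strand, were not given in the sources used here. Whole-number read counts, FPKM values scaled for length and library size, and other fields such as transcript length were deposited by the authors on mm10, in 1 pair of tables for naive and FC and another for extinction. Since 1 gene count column named no single sample, gene counts were summed from the deposited transcript counts, and 12 value columns were not used.

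Tests used edgeR 4.0.16 in R 4.3.3 (quasi-likelihood F test, TMM scaling, filterByExpr, Benjamini-Hochberg adjustment over all tested genes, threshold 0.05). Strain, region and conditioning were terms of an additive model with 4 residual degrees of freedom; interactions left 3, the extinction libraries 1 and the change at extinction 6. Transcript shares were tested with edgeR's diffSpliceDGE. DESeq2 1.42.0, limma 3.58.1 on log2(FPKM + 1) and log2(FPKM + 0.1) with mean FPKM above 0.1, RLE scaling, no filter and omission of each library were alternatives. Scripts were tested on simulated data. Neither the number of mice in a library nor whether the regions came from the same mice is in the labels, and the tests treat libraries as independent.

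Members and lists were chosen with earlier results of these data known. All members are named; of each partner list the 4 largest changes that passed (mean CPM 1 or more) and Idh2, Hagh, Tsnax and Cyfip1; of the neighbours the 4 largest and the nearest, with others named after their values were seen. A gene that this rule names is not reported here. Counts limit precision: 3 counts served as the floor.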

Additional observations from a re-analysis of the deposited data

How the results depend on the processing

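Each value was recomputed under the alternatives, which gave 489 comparisons with the reported values. Of these 423 kept the result, 37 turned sign, 13 lost a call, 2 gained one and 14 moved without a test. Kept means the same direction and side of the threshold or, where there was no test, within 1 SE of the reported value. Without a test, a sign change was counted only if the reported value had passed. Those of Disc1 (to 0.27) and Cyfip2 (to -0.0202) after extinction are therefore not among the 37. DESeq2, RLE scaling, no filter and limma kept the strain calls of Glo1, Nnt and Cyfip2 before extinction; DESeq2 tested the genes without the count filter, and limma changed unit, tool and filter together. In naive libraries alone Nnt (-0.45) and Cyfip2 (0.25) lost theirs, as did Cyfip2 in BLA alone (0.17). Without the length trend Glo1 was 0.94 and Cyfip2 0.11. Disc1 turned to 0.82 in CeA alone and 0.31 in FC libraries alone. Between regions limma on log2(FPKM + 1) and log2(FPKM + 0.1) gave Disc1 -0.01 and -0.0707 and Glo1 -0.0213 and -0.0221; log2(FPKM + 0.1) moved the median of all genes to -0.11, against -0.01 in edgeR. For conditioning Cyfip2 was 0.0 with DESeq2 and 0.0016 without the filter.

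Omitting each library gave strain differences of -0.32 to 0.35 for Disc1 and 0.23 to 0.36 for Cyfip2. Region differences were -0.39 to 0.41 for Disc1 and 0.06 to 0.16 for Glo1. Conditioning differences were -0.12 to 0.0096 for Nnt, -0.10 to 0.0115 for Glo1 and -0.06 to 0.0654 for Cyfip2. The interaction with conditioning was -0.19 to 1.69 for Disc1, -0.23 to 0.0589 for Glo1 and -0.0527 to 0.25 for Cyfip2. The change at extinction was -0.0688 to 0.31 for Nnt, -1.18 to 0.076 for Disc1 and -0.40 to 0.0004 for Cyfip2. Per transcript, strain differences were -0.30 to 1.5045 for Nnt variant 1, -0.18 to 0.47 for Disc1 variant 1, 0.75 to 0.87 for Glo1 variant 1 and 0.21 to 0.30 for Cyfip2 variant 1. Share differences were -0.0532 to 0.73 for Cyfip2 variant 2 and -0.54 to 0.0506 for Nnt variant 2. After extinction, with no residual degrees of freedom and no test, differences were -0.72 to -0.11 for Nnt, -1.53 to 0.27 for Disc1, 0.96 to 1.07 for Glo1 and -0.0202 to 0.17 for Cyfip2.

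Over all genes, DESeq2 called 117 genes for the strain by region interaction and 575 for strain after extinction, against 5 and 262 in edgeR, where no filter gave 161. Strain calls were 1305 in BLA, 4134 in CeA, 319 in naive and 2162 in FC libraries alone, against 3712, and 1489 to 5227 with a library left out. Transcript calls were 63 to 1225 with a library left out, against 751.

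No paired analysis was possible because the replicate number is 1 in every library and pairs none. Matched libraries as a block, added after seeing the data, changed no call of the 4 genes for strain (Glo1 0.85, Nnt -0.53, Cyfip2 0.29, Disc1 -0.05), region or conditioning, and called 3631 genes for strain. With 1 library a group, spread between mice is unknown; with 8 to 38 Disc1 counts per library, depth limits Disc1 most.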
